A study of Mus musculus with 11 samples.

Results

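The clustered protocadherins are cell surface adhesion proteins of neurons, encoded by tandem gene arrays named alpha, beta and gamma. They were taken here as every row of the count tables whose symbol starts with Pcdha, Pcdhb or Pcdhg followed by a number or by an a, b or c series letter. This gave 59 rows of 24421, of which 15 belong to the alpha cluster, 22 to the beta cluster and 22 to the gamma cluster. Enough counts for a test were present for 54 of them: 11 alpha, 21 beta and 22 gamma members.

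The RNA came from the hippocampus of mouse offspring aged 14 to 18 weeks. Their mothers had received particulate matter (PM, 200 µg per kg) or normal saline (vehicle) through the nose at pregnancy day 9, again at day 12 and last at day 15, with birth at day 21. There were 5 vehicle and 6 PM libraries in 2 sets of deposit: the first held vehicle replicates 1 to 3 and PM replicates 1 to 3, the second vehicle replicates 4 and 5 and PM replicates 4 to 6. Strain, sex and litter are not stated, nor whether libraries came from separate animals, so the p-values speak only of how far these libraries scatter, part of which may be technical.

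Each neuron switches on a small, largely random selection of the promoters in these clusters and so carries its own set of surface protocadherins. Proteins of the same kind bind each other across membranes, which lets the branches of a neuron recognise and avoid one another and also shapes dendrites, synapses and neuron survival. The chosen alpha or gamma first exon, which encodes the extracellular part, is spliced to constant exons shared by the whole cluster, whereas each beta gene is a single exon with no constant part. The C-type members (Pcdhac1, Pcdhac2, Pcdhgc3, Pcdhgc4 and Pcdhgc5) are chosen less randomly than the others. CTCF and cohesin loop a distant enhancer to the chosen promoter, and DNA methylation marks the silent ones.

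On the mouse GRCm38 assembly the clusters follow each other on the plus strand of chromosome 18. The alpha members span positions 36930184 to 37187661, the beta members 37264938 to 37524479 and the gamma members 37661793 to 37841873. In the GENCODE gene models the constant exons give each annotated alpha member at least 2860 exon bases, and each gamma member at least 2116, that it shares with other rows. The longest transcript of all 22 beta members is a single exon, and only Pcdhb21 and Pcdhb22 share bases, 455 at the point where they overlap. Values for alpha and gamma members therefore rest on their own first exons as far as shared bases were not counted, and how such bases were counted is not stated in the sources used here. Reads that matched more than a single gene ranged from 0.54% to 0.58% of all reads tallied with vehicle and from 1.21% to 1.42% with PM, or from 1.62 to 1.71 and from 1.85 to 2.29 for each 100 gene counts. Reads that did not align to a unique place were 4.21% to 4.75% with vehicle and 7.22% to 9.90% with PM. The part of both kinds of reads in the results was not tested.

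The libraries of the 2 groups differed in general. Vehicle libraries held 6012116 to 12496651 gene counts and PM libraries 10938521 to 17763893. Reads outside annotated features were 60.9% to 62.0% of those tallied with vehicle but 18.8% to 33.97% with PM, and the part of this difference in the results was not tested. Of 14982 genes tested with edgeR's quasi-likelihood test, 5450 were lower and 4904 higher with PM at an adjusted p below 0.05, so 47.4% of the calls were rises. With a trend on transcript length and GC content removed from each library, 65.0% of the calls were rises and the median of all genes moved from -0.04 to 0.18 on the log2 scale.

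Transcripts of all 3 clusters were lower with PM, and the beta cluster was the least uniform. All 11 tested alpha members, all 22 gamma members and 18 of 21 beta members fell, and none passed the test in the other direction. Among all genes tested 36.4% fell and 32.7% rose. The median log2 fold change was -2.31 for alpha, -2.44 for gamma and -1.18 for beta, against -0.04 for all genes. As linear values the medians are falls of 4.96-fold, 5.42-fold and 2.26-fold. Over both sets, 1 beta member (Pcdhb9) had an unadjusted p under 0.05 for a rise, 0.0357, and DESeq2's Wald test called that 1 member higher.

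**Figure D1:**
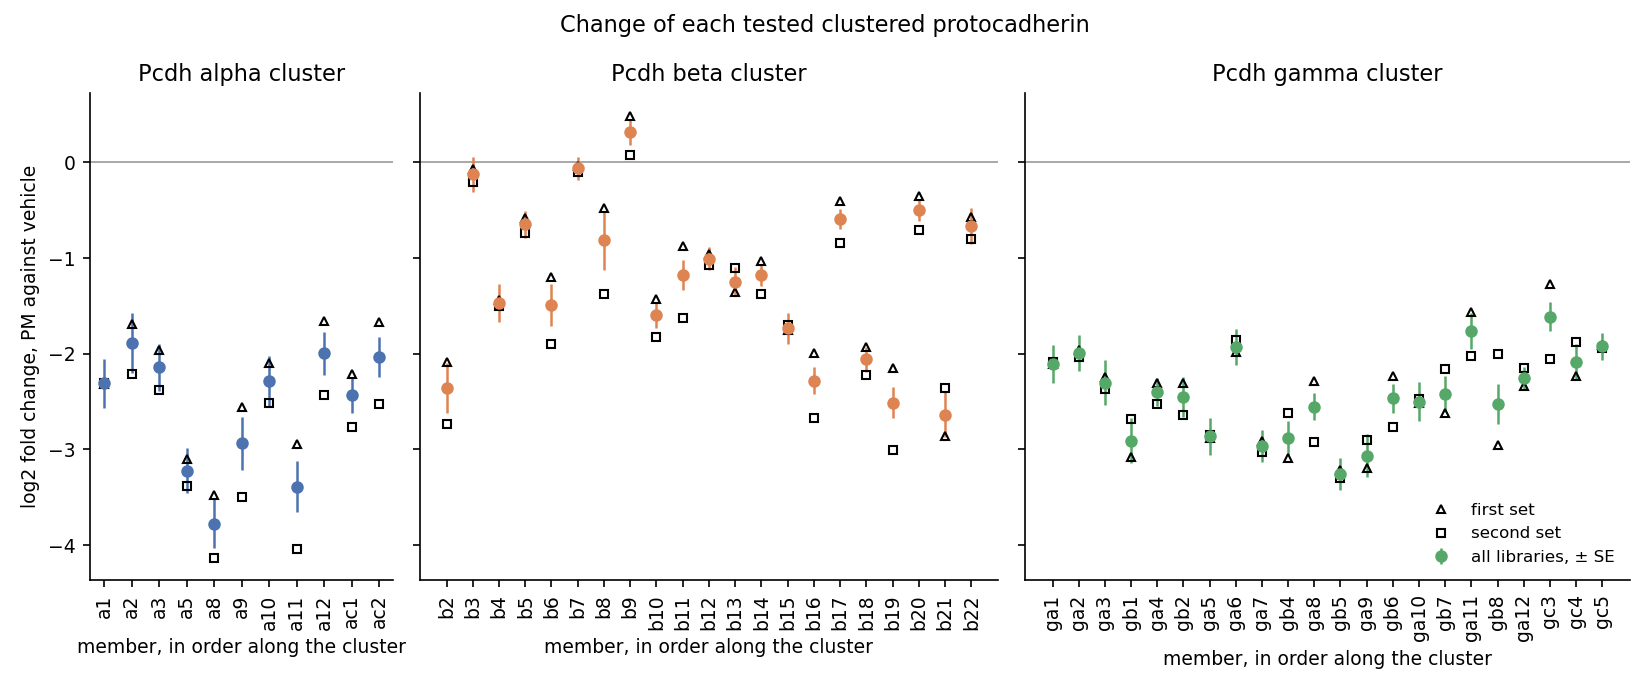
Log2 fold change of each of the 54 tested members, PM against vehicle, in their order along the alpha, beta and gamma clusters. Filled circles with bars are the estimate over all libraries ± SE, open triangles the first set and open squares the second set; alpha and gamma members lie between -3.78 and -1.61, while beta members reach from -2.64 to 0.32.

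Beta members had fewer large falls, while the ranges of alpha and gamma overlapped. A fall of over 2-fold was called for all 11 alpha, all 22 gamma and 13 of 21 beta members, beside 17.1% of all genes. A fall of over 4-fold was called for 9 alpha, 17 gamma and 5 beta members, beside 5.33% of all genes. Every PM library lay below every vehicle library for all 11 alpha, all 22 gamma and 16 of 21 beta members, beside 28.1% of all genes. The SD of the log2 fold changes among members was 0.64 in alpha, 0.84 in beta and 0.44 in gamma. Differences between the clusters are described here and were not tested, because members of a cluster share libraries and, in alpha and gamma, exons.

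Summed over its members, the alpha cluster stood at 110.2, 106.9, 107.7, 121.3 and 110.0 CPM (counts scaled to a common TMM-adjusted library size) in vehicle replicates 1 to 5. In PM libraries the sum had a lowest value of 15.0, a median of 16.4 and a highest value of 37.0 CPM. The groups did not overlap, and PM replicate 1 stood well above the other PM libraries. The rows Pcdha4, Pcdha6 and Pcdha7 held no counts in any library, so alpha sums and shares given here hold nothing from these genes. The means were 111.2 ± 5.81 CPM (SD, n = 5) and 20.6 ± 8.55 CPM (SD, n = 6). In bulk tissue, fewer cells that express a gene and less RNA per cell cannot be told apart.

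By group mean the gamma cluster was the most abundant in both groups. In PM replicate 3, however, beta stood above gamma, at 113.7 against 96.3 CPM. The gamma sum was 650.6, 590.3, 619.8, 597.6 and 568.1 CPM in vehicle replicates 1 to 5, and in PM libraries 96.3 at the lowest, 122.1 at the median and 180.0 at the highest. The means were 605.3 ± 31.3 CPM (SD, n = 5) and 131.1 ± 30.7 CPM (SD, n = 6), with no overlap. The beta sum was 241.2, 255.4, 230.1, 240.1 and 255.4 CPM in vehicle replicates 1 to 5. In PM libraries its lowest value was 96.3, its median 111.2 and its highest 134.6 CPM. The beta groups did not overlap either, with means of 244.4 ± 10.9 CPM (SD, n = 5) and 112.4 ± 13.6 CPM (SD, n = 6).

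**Figure D2:**
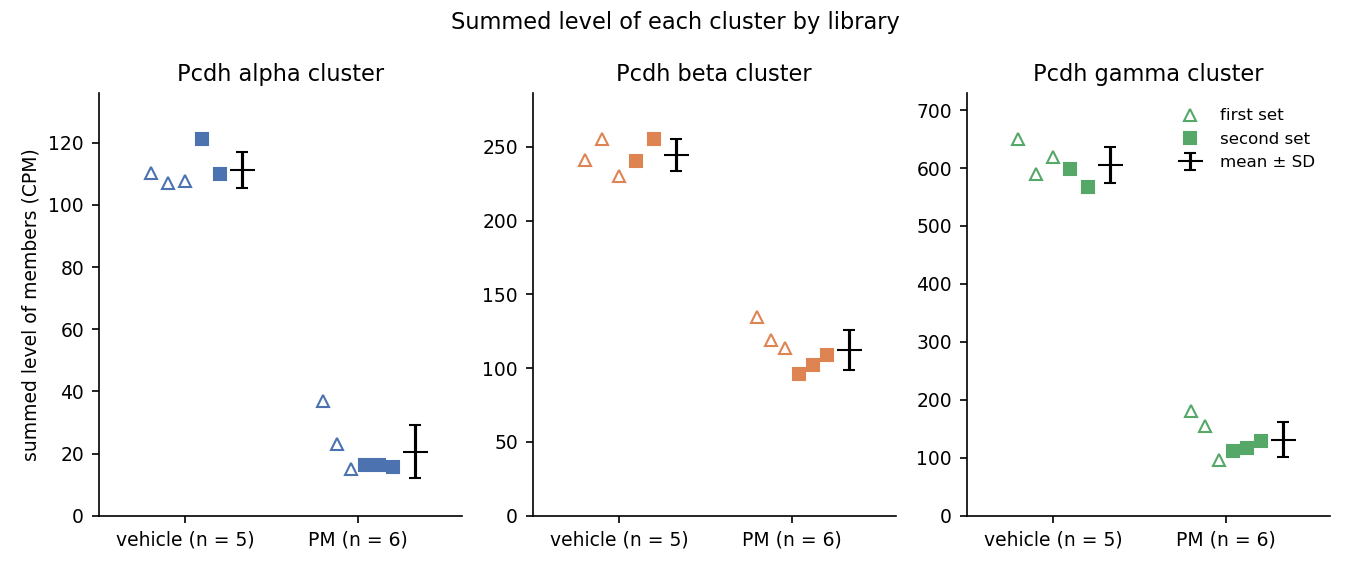
Summed CPM of the members of each cluster in every library, vehicle beside PM, with open triangles for the first set, filled squares for the second set and black bars for mean ± SD (n = 5 and n = 6). In each cluster all PM libraries lie below all vehicle libraries.

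Because the falls differed in size, the makeup of the clustered protocadherin counts shifted towards beta. Beta members held from 24.0% to 27.4% of these counts with vehicle, against 38.3% to 50.5% with PM. Gamma members held 60.9% to 64.9% in vehicle and 42.8% to 52.0% in PM libraries, and alpha members 10.99% to 12.6% and 6.202% to 10.5%. None of the 3 shares overlapped between groups. The ratio of gamma to beta counts was 2.48 ± 0.216 with vehicle (SD, n = 5) against 1.16 ± 0.172 with PM (SD, n = 6), and the mean with PM was 1.16 in both sets. The ratio of alpha to gamma counts did overlap, at 0.169 to 0.203 in vehicle and 0.122 to 0.205 in PM libraries.

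**Figure D3:**
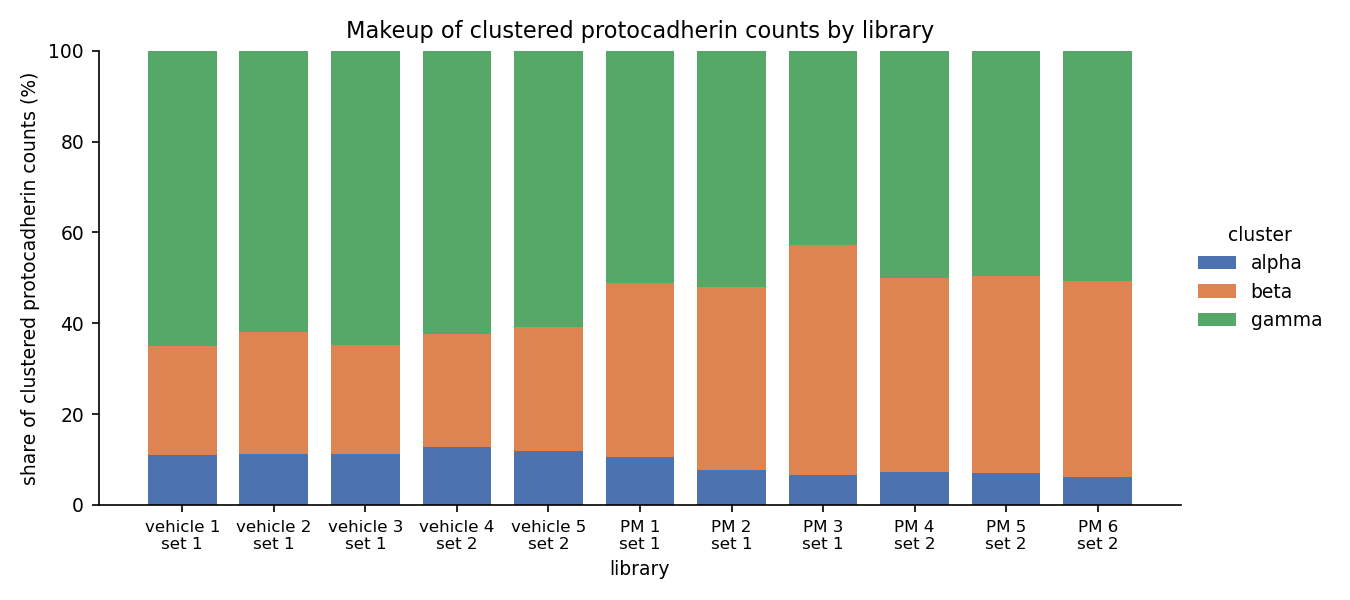
Share of all clustered protocadherin counts, in percent, held by the alpha, beta and gamma clusters in each of the 11 libraries. The beta share is 24.0% to 27.4% with vehicle, against 38.3% to 50.5% with PM.

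Levels per length are given here as CPM per kilobase of exon held by no other row. Pcdhgc3, a C-type member, led in vehicle libraries with 22.8 ± 1.63 CPM per kb (SD, n = 5), followed by Pcdhgc5 with 21.3 ± 2.65. Pcdhga4, an alternate gamma member, followed with 13.2 ± 0.728, and Pcdhac2, the highest alpha member, with 12.6 ± 0.641 CPM per kb. These SDs are between libraries, and differences between members within the same library were not tested. The other C-type members were lower, Pcdhgc4 with 3.93 CPM per kb (place 21 of 22 in gamma) and Pcdhac1 with 2.85 (place 5 in alpha). Over the whole longest transcript, shared exons included, Pcdhgc5 (20.3 CPM per kb) stood above Pcdhgc3 (16.4), and Pcdhga4 was at 4.40, under many other gamma members. All beta members lay at 5.02 CPM per kb or lower in vehicle libraries, and the medians were 2.26 for alpha (untested members included), 2.50 for beta and 7.94 for gamma.

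In PM libraries Pcdhac2 still led the alpha cluster, and Pcdhgc3 and Pcdhgc5 the gamma cluster. Pcdhgc3 had 7.45 ± 2.895 CPM per kb (SD, n = 6), Pcdhgc5 5.51 ± 1.46 and Pcdhac2 3.07 ± 1.52. In the beta cluster the order changed more. Pcdhb16 and Pcdhb18, first and second in vehicle libraries, were in places 11 and 9 of 22 in PM libraries, while Pcdhb9 moved from place 8 to place 1. Across members, the rank correlation of level per length between groups was 0.82 over 11 alpha, 0.68 over 21 beta and 0.86 over 22 gamma members, as a description of members that share libraries.

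**Figure D4:**
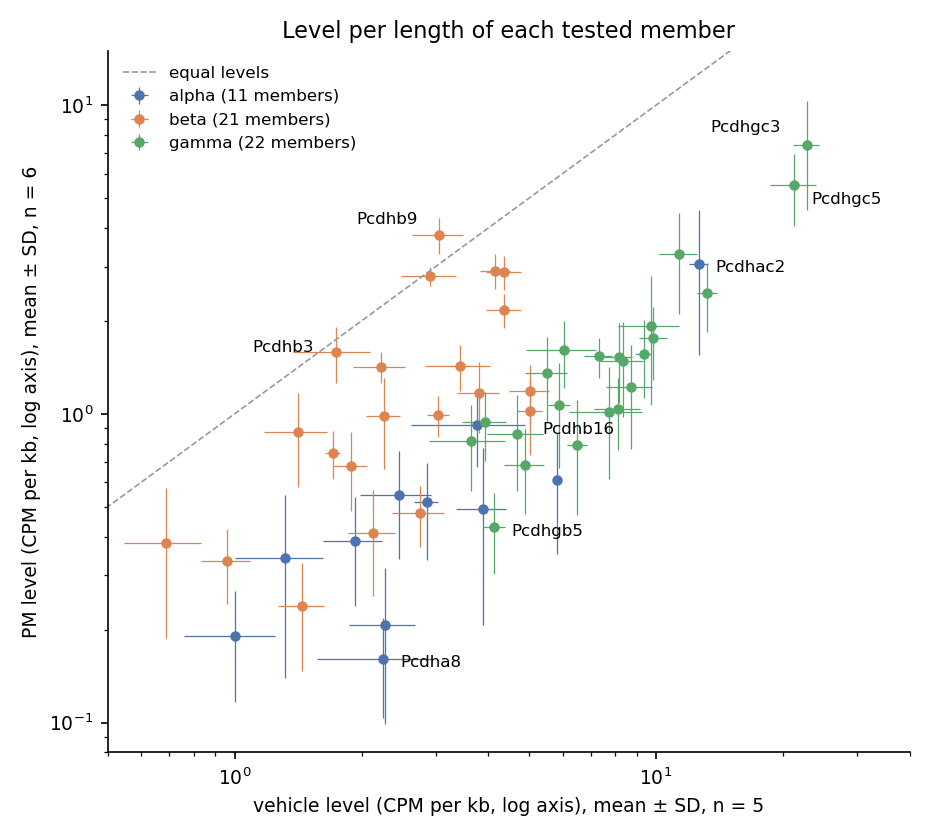
Level per length of the 54 tested members, vehicle on the horizontal and PM on the vertical axis, both logarithmic, as mean CPM per kb ± SD (n = 5 and n = 6). All members except Pcdhb9 lie below the dashed line of equal levels. In both groups Pcdhgc3 and Pcdhgc5 are the highest gamma members and Pcdhac2 is the highest alpha member.

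Pcdhgc5, a C-type gamma member, had the highest level of any member before division by length. Vehicle replicates 1 to 5 held 131.9, 113.3, 133.1, 101.5 and 106.3 CPM, and PM libraries 22.1 at the lowest, 28.1 at the median and 44.3 at the highest. No PM library reached the vehicle range. It fell by 1.92 on the log2 scale (SE 0.14, edgeR adjusted p = 6.12e-08), lower in 6 of 6 PM libraries. A share of 12.8% of its 100-base windows also occurs in another gene model, so part of its counts is uncertain.

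Pcdhgc3, which in the cortex is known to promote dendrite branching, stood at 82.1, 74.3, 83.6, 71.8 and 72.9 CPM in vehicle replicates 1 to 5. The PM libraries split by set, with 36.5, 38.2 and 24.3 CPM in the first and 17.9, 17.3 and 17.1 CPM in the second. All lay below the vehicle libraries, and its log2 fold change of -1.61 (SE 0.15, edgeR adjusted p = 5.57e-07) was the smallest fall in the gamma cluster. It fell by 1.27 in the first set but by 2.05 in the second on the log2 scale, a difference that was itself past the threshold (-0.78, SE 0.20, edgeR adjusted p = 0.00819).

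As a result Pcdhgc5 and Pcdhgc3 did not keep their ratio in the first set. The ratio of their counts was 1.52 ± 0.0832 in vehicle libraries (SD, n = 5), 1.01 ± 0.178 with PM in the first set and 1.56 ± 0.192 with PM in the second set (SD, n = 3 each). All 3 PM libraries of the first set, at 0.898 to 1.21, lay below the vehicle range of 1.41 to 1.61, while those of the second set ranged from 1.40 to 1.77. The difference of the ratio between sets was not tested.

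Pcdhgc4, the C-type member needed for the survival of interneurons in development, had 14.0, 12.4, 14.7, 15.5 and 11.7 CPM in vehicle replicates 1 to 5. PM libraries held 1.65 at the lowest, 3.64 at the median and 3.83 CPM at the highest, and the groups were apart. Its log2 fold change was -2.08 (SE 0.18, edgeR adjusted p = 2.81e-07). Of 6 interneuron markers, 1 fell, 2 rose and 3 did not pass, beside 36.4% of all genes lower and 32.7% higher, and their summed level was 621.7 to 696.3 CPM in vehicle and 472.8 to 628.9 in PM libraries. The part of these markers in the result was not tested.

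The C-type members of the alpha cluster fell too. Pcdhac2 had 41.0, 35.9, 39.1, 37.6 and 37.4 CPM in vehicle replicates 1 to 5. It had 18.0, 10.7 and 7.52 CPM in PM replicates 1 to 3 and 7.20, 6.62 and 5.67 CPM in PM replicates 4 to 6. PM replicate 1 was the highest PM library, still under the lowest vehicle library, and the log2 fold change was -2.03 (SE 0.21, edgeR adjusted p = 1.29e-06).

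Pcdhac2 is the main alpha isoform of serotonergic neurons, whose axons reach the hippocampus while their cell bodies lie in the brain stem. The serotonergic markers Slc6a4 and Fev held no more than 3 counts in any library, and Tph2, at 0.711 ± 0.277 CPM with vehicle (SD, n = 5), rose to 1.46 ± 0.255 CPM with PM (SD, n = 6; edgeR adjusted p = 0.00599), beside 32.7% of all genes higher. Tph2 rose in the first set (1.53 on the log2 scale, edgeR adjusted p = 0.00114) but did not pass in the second (0.43, edgeR adjusted p = 0.401). Its lowest vehicle value was 0.272 CPM, close to 3 counts. Pcdhac1, the other C-type alpha member, lay at 6.59 to 7.78 CPM in vehicle and 0.728 to 1.94 CPM in PM libraries. The ranges were apart, and its log2 fold change was -2.43 (SE 0.19, edgeR adjusted p = 1.09e-07).

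Summed, the C-type members made up a larger part of what remained. They held 36.8% to 44.1% of alpha counts in vehicle and 44.7% to 58.9% in PM libraries, and 31.6% to 37.3% of gamma counts in vehicle and 39.8% to 49.9% in PM libraries. Neither share overlapped between groups, though the alpha ranges nearly met. The alpha counts hold nothing from the alternate members Pcdha4, Pcdha6 and Pcdha7, whose rows were empty. Most of these counts were those of Pcdhac2, Pcdhgc3 and Pcdhgc5, whereas Pcdhac1, with a log2 fold change of -2.43, fell further than the median of the alternate alpha members. The median log2 fold change was -2.03 over the 5 C-type members, -2.31 over 9 alternate alpha, -2.35 over 12 gamma A and -2.52 over 7 gamma B members.

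Among the alternate alpha members, each chosen by a small part of the neurons, the largest falls were those of Pcdha8, Pcdha11 and Pcdha5. Pcdha8 had 4.75, 4.53, 4.43, 8.50 and 5.71 CPM in vehicle replicates 1 to 5, and its PM libraries ranged from 0.236 to 0.608 CPM with a median of 0.365. It fell by 3.78 on the log2 scale (SE 0.26, edgeR adjusted p = 3.39e-08), which is 13.7-fold and the largest fall of all members, from 263 counts over the vehicle libraries to 34 over the PM libraries. The PM values thus rest on few counts per library.

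Pcdha5 was even across vehicle libraries, with 14.1, 13.5, 13.4, 13.7 and 13.6 CPM in replicates 1 to 5. In PM libraries it had 0.573 CPM at the lowest, 1.48 at the median and 2.31 at the highest. Its log2 fold change was -3.22 (SE 0.23, edgeR adjusted p = 5.07e-08). Pcdha11 lay between 8.71 and 13.7 CPM in vehicle and between 0.510 and 1.88 CPM in PM libraries, a fall of 3.39 (SE 0.27, edgeR adjusted p = 1.16e-07). For both, all 6 PM libraries lay below every vehicle library. Stretches of Pcdha11 recur in other rows (13.0% of its 100-base windows, most often in Pcdha10), so counts of these neighbours are uncertain.

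Some alpha rows held no usable counts. Pcdha4, Pcdha6 and Pcdha7 were at 0 in every library, which allows up to 3 counts, or 0.499 CPM in the shallowest library, for counting error only. Their RefSeq models start 41, 6 and 9 bases from the starts of fused RefSeq models that run on through the gamma cluster. Their GENCODE models start at the same bases as these fused models. The rows for the fused models held 8, 11 and 15 counts over all 11 libraries, the last being the row Pcdha7-g with 13 counts in vehicle and 2 in PM libraries. Whether reads of the 3 genes were lost to this overlap was not tested. They are uncertain for this reason, and no change is given for them.

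The gamma cluster holds alternate members of an A and a B type, which differ in sequence but share the constant part. Pcdhgb5 fell most, from 19.0, 18.8, 17.5, 20.6 and 19.3 CPM in vehicle replicates 1 to 5 to a range of 1.36 to 2.86 CPM, median 1.87, in PM libraries. The groups were far apart, and the fall was 3.26 on the log2 scale (SE 0.17, edgeR adjusted p = 4.31e-09). It fell in both sets, by 3.22 in the first and 3.30 in the second.

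Pcdhga7 had 29.4, 22.5, 21.7, 25.8 and 26.5 CPM in vehicle replicates 1 to 5 and 1.93 to 4.44 CPM, median 3.19, in PM libraries, a log2 fold change of -2.97 (SE 0.17, edgeR adjusted p = 8.74e-09). Pcdhga12, the last alternate member before the C-types, averaged 33.2 ± 2.57 CPM with vehicle (SD, n = 5) and 6.97 ± 1.05 CPM with PM (SD, n = 6), and fell by 2.25 (SE 0.12, edgeR adjusted p = 4.91e-09). Neither differed between sets past the threshold. The other alternate gamma members fell by 1.76 (Pcdhga11) to 3.06 (Pcdhga9) on the log2 scale.

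Beta members, which lack the constant cytoplasmic part, showed both large falls and levels that hardly differed. Pcdhb16 had 24.5, 28.9, 24.8, 26.0 and 26.9 CPM in vehicle replicates 1 to 5, and 7.05, 7.21, 5.23, 4.38, 4.15 and 3.90 CPM in PM replicates 1 to 6. Its log2 fold change was -2.28 (SE 0.14, edgeR adjusted p = 1.47e-08), with all PM libraries below all vehicle libraries.

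Pcdhb19 and Pcdhb18, its near neighbours, fell as far. Pcdhb19 had 18.3, 20.3, 15.6, 21.4 and 22.5 CPM in vehicle replicates 1 to 5 and 2.55 to 4.31 CPM, median 3.45, with PM, a fall of 2.51 (SE 0.16, edgeR adjusted p = 1.85e-08). Pcdhb18 lay between 23.7 and 30.1 CPM in vehicle and between 4.51 and 7.78 CPM in PM libraries (-2.06, SE 0.13, edgeR adjusted p = 1.56e-08). Pcdhb10 lay between 7.96 and 9.34 CPM with vehicle and between 2.30 and 3.37 CPM with PM, a fall of 3.03-fold (SE 0.13 on the log2 scale, edgeR adjusted p = 2.09e-07). In none of these members did the groups overlap.

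Pcdhb3, Pcdhb7 and Pcdhb9 did not pass the test; they are named here after their values were seen. Pcdhb7 had 12.5, 9.78, 8.50, 9.48 and 10.8 CPM in vehicle replicates 1 to 5 and 9.60, 9.75, 10.8, 10.5, 8.95 and 9.12 CPM in PM replicates 1 to 6. The groups overlapped throughout, with a log2 fold change of -0.06 (SE 0.12, edgeR adjusted p = 0.664). Pcdhb3 had 5.23 to 8.51 CPM in vehicle and 3.79 to 7.17 CPM in PM libraries (-0.12, SE 0.18, edgeR adjusted p = 0.570).

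Pcdhb9 was the only tested member with a positive estimate. Vehicle replicates 1 to 5 held 9.82, 7.33, 9.22, 9.48 and 10.9 CPM, and PM replicates 1 to 6 held 12.0, 12.8, 12.3, 8.46, 11.9 and 12.2 CPM. Except for PM replicate 4, all PM libraries lay above all vehicle libraries. The log2 fold change was 0.32 (SE 0.14, edgeR adjusted p = 0.0515), and without PM replicate 4 it was 0.39 (edgeR adjusted p = 0.00963), past the threshold. Without vehicle replicate 5 it was also past it, at 0.40 (edgeR adjusted p = 0.0255). Together Pcdhb3, Pcdhb7 and Pcdhb9 held 10.03% to 11.9% of beta counts with vehicle, against 21.4% to 27.2% with PM.

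**Figure D5:**
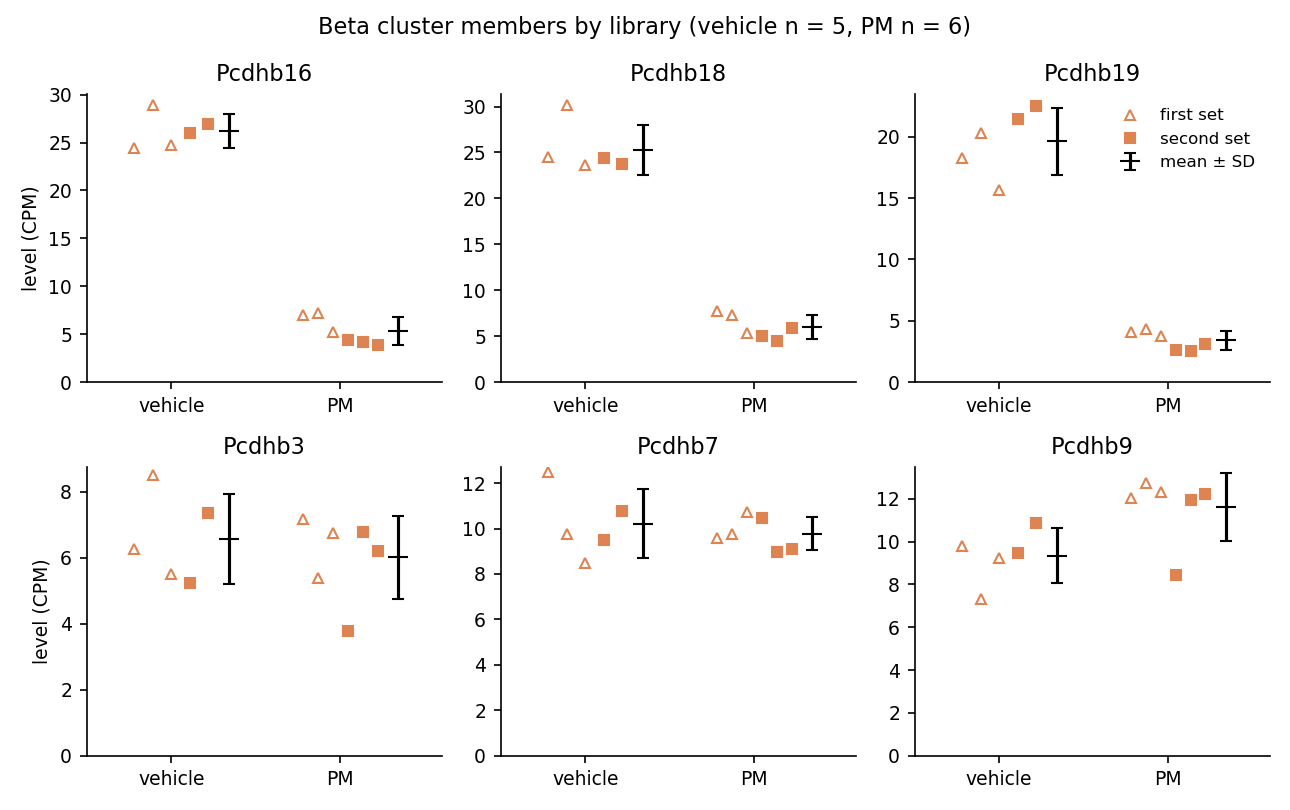
Level in CPM of 6 beta members in each library, with open triangles for the first set, filled squares for the second set and black bars for mean ± SD (vehicle n = 5, PM n = 6). Pcdhb16, Pcdhb18 and Pcdhb19 in the upper row are apart between groups, whereas Pcdhb3, Pcdhb7 and Pcdhb9 in the lower row overlap.

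Some adjacent beta members differed widely in their falls, while from Pcdhb10 to Pcdhb16 adjacent members differed by 0.07 to 0.55 on the log2 scale. Pcdhb17, which had 20.4 ± 1.94 CPM in vehicle (SD, n = 5) and 13.4 ± 1.68 CPM in PM libraries (SD, n = 6), fell by 0.59 (SE 0.11, edgeR adjusted p = 0.000263). It lies between Pcdhb16 and Pcdhb18, with 1756 bases before it and 10 bases after it in the gene models. The ratio of Pcdhb17 to Pcdhb18 was 0.676 to 0.959 in vehicle and 1.93 to 2.69 in PM libraries, and that of Pcdhb17 to Pcdhb16 0.705 to 0.899 and 1.94 to 3.30. Where Pcdhb17 was the lower of each pair in all vehicle libraries, it was the higher in all PM libraries.

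Pcdhb19 and Pcdhb20 lie 135 bases apart and gave the same picture. Pcdhb20 fell by 0.50 (SE 0.11, edgeR adjusted p = 0.000904), and its ratio to Pcdhb19 was 0.668 to 0.821 in vehicle and 2.44 to 3.66 in PM libraries. Pcdhb21, with a fall of 2.64, overlaps Pcdhb22, with a fall of 0.66, by 455 bases, so both are uncertain at that point. These pairs were chosen after their values were seen.

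Over the 21 beta members the rank correlation of the log2 fold change was -0.23 with position, -0.14 with length and 0.22 with GC content of their unshared exon bases. Over the 22 gamma members it was 0.23, 0.07 and 0.15, and over the 11 alpha members 0.01, 0.06 and 0.36. The points of each correlation share all libraries. Between clusters the makeup did differ. Unshared exons of beta members had a median GC content of 46.1% and 2.07 CpG per 100 bases, those of alpha members 53.0% and 4.68, and those of gamma members 52.5% and 3.93. No 100-base window recurred in other genes for 11 of 22 beta, 13 of 22 gamma and 2 of 14 annotated alpha members. The highest share of recurring windows in beta was 2.31%, and the median share was 6.36% in alpha and 0% in gamma. The rank correlation of the log2 fold change with this share was -0.32 over alpha, 0.29 over beta and -0.40 over gamma members.

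With a length and GC trend removed from each library, all 11 alpha and all 22 gamma members were again lower, beside 22.8% of all genes. Of the beta members, 13 were lower, and Pcdhb9 and Pcdhb14 were higher (0.51 and 0.29 on the log2 scale), beside 42.4% of all genes higher. The medians were then -1.66 for alpha, -0.87 for beta and -2.25 for gamma. Alpha and gamma kept the larger falls. When the trend was instead taken at the unshared exon bases of the members, the medians were -2.50, -0.87 and -2.60, so the alpha value turned on which bases stood for a member.

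Both sets, each with its own vehicle libraries, gave the falls. Whether those libraries came from separate animals is not stated. In the first set 11 alpha, 17 beta and 22 gamma members were lower, beside 38.9% of all genes, and in the second 11, 18 and 22, beside 32.5% of all genes. The first set also held 1 rise, that of Pcdhb9 (0.49, SE 0.16, edgeR adjusted p = 0.0116), beside 32.1% of all genes, and fitted alone it held the same rise (0.59), beside 34.9%. For the second set its estimate was 0.08 (SE 0.19, edgeR adjusted p = 0.719), beside 32.3% of all genes higher. The difference between sets for Pcdhb9 did not pass (-0.41, SE 0.25, edgeR adjusted p = 0.232). Median log2 fold changes were -2.21 and -2.52 for alpha, -1.03 and -1.38 for beta and -2.31 and -2.42 for gamma, first and second set in turn. The rank correlation of member changes between sets was 0.92 over 21 beta, 0.72 over 11 alpha and 0.66 over 22 gamma members.

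The change with PM differed between sets for 6 of 54 members, or 0 of 11 alpha, 3 of 21 beta and 3 of 22 gamma members, beside 29.6% of all genes. Of these 5 were lower in the second set, beside 12.1% of all genes, and 1 was higher, beside 17.5%. Besides Pcdhgc3 these were Pcdhb11, Pcdhb16, Pcdhb19 and Pcdhga8, which fell further in the second set, and Pcdhgb8, which fell further in the first. Pcdhb11 had 8.50 to 10.7 CPM in vehicle libraries, 5.45 to 5.79 CPM in PM libraries of the first set and 2.45 to 3.49 CPM in those of the second. Its falls were 0.88 and 1.62 (difference -0.74, SE 0.26, edgeR adjusted p = 0.0397). Pcdhgb8 had 1.123 to 1.82 CPM in PM libraries of the first set and 2.38 to 3.28 CPM in the second, against 8.90 to 13.4 CPM in vehicle libraries (difference 0.94, SE 0.34, edgeR adjusted p = 0.0443). This count of 6 moved with single libraries: it was 1 without vehicle replicate 5, 2 without vehicle replicate 1, vehicle replicate 3 or PM replicate 2, 3 without vehicle replicate 2, and 10 without PM replicate 3.

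Between the vehicle libraries of the 2 sets, 3 against 2, edgeR called 0 of 54 members, beside 0% of all 14982 genes, and at an unadjusted p under 0.05 the counts were 1 member and 535 genes; no other tool was run on this contrast. This does not show that the sets were alike: Pcdha8, chosen after its values were seen, had 4.43 to 4.75 CPM in the first set and 5.71 to 8.50 CPM in the second, and Pcdhgc5 113.3 to 133.1 and 101.5 to 106.3 CPM. PM libraries of the 2 sets differed for 8 members that were lower in the second set, beside 22.8% of all genes, and for 1 that was higher (Pcdhgb8), beside 24.9%. Those lower were Pcdhac1, Pcdhac2, Pcdhb8, Pcdhb11, Pcdhb16, Pcdhb19, Pcdhga8 and Pcdhgc3.

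Of 20 tested non-clustered protocadherins and large atypical cadherins, 17 fell, 0 rose (also 0 at an unadjusted p under 0.05) and 3 did not pass, beside 36.4% of all genes lower. Their median was -1.63, and the difference from the clustered members was not tested. Celsr3, named after its values were seen, fell in the first set (-1.57, edgeR adjusted p = 5.31e-05) and rose in the second (1.10, edgeR adjusted p = 0.00228). Fat3, an atypical cadherin that shapes neuron processes, averaged 314.4 ± 10.5 CPM with vehicle (SD, n = 5) and 58.0 ± 8.55 CPM with PM (SD, n = 6), a fall of 2.45 (edgeR adjusted p = 1.15e-09). Fat1 fell by 2.38, Pcdh9, a delta protocadherin, by 2.09 and Pcdh11x by 2.05. Of 18 classical cadherins and catenins 13 fell and 2 rose, beside 36.4% and 32.7% of all genes, with a median of -1.01. The summed level of the non-clustered protocadherins and large atypical cadherins together, 21 genes, was 3200 to 3404 CPM in vehicle and 933.3 to 1332 CPM in PM libraries.

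Among genes known to act in promoter choice more fell than rose. CTCF itself, which binds the chosen promoters, had 76.6 ± 1.75 CPM in vehicle (SD, n = 5) and 72.7 ± 4.25 CPM in PM libraries (SD, n = 6; log2 fold change -0.07, edgeR adjusted p = 0.374). Of the 12 genes for CTCF, cohesin and its loaders, 9 fell, 0 rose (also 0 at an unadjusted p under 0.05) and 3 did not pass, beside 36.4% of all genes lower, with a median of -0.54. Mau2, named after its values were seen, fell in the first set (-0.36, edgeR adjusted p = 0.00331) and rose in the second (0.53, edgeR adjusted p = 0.000663). Nipbl, which loads cohesin onto DNA, fell by 1.91 (edgeR adjusted p = 1.22e-09), Pds5a by 1.80, Pds5b by 1.19 and Wapl, which releases cohesin, by 1.11. Of 13 genes for DNA methylation and silencing 8 fell and 1 rose, with a median of -0.48, beside the same background. Tet1, which oxidises methylated cytosine, fell by 2.50 (edgeR adjusted p = 9.72e-10), Smchd1, a silencer of protocadherin genes, by 1.35 and Tet3 by 1.29.

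Of 19 genes for cytoplasmic partners and proteolysis of protocadherins, 12 fell and 2 rose, beside 36.4% and 32.7% of all genes, with a median of -0.45. Prkca, a kinase in protocadherin signalling, fell by 1.35, and Cyfip2 and Abi2, of the WAVE complex that builds branched actin, by 0.95 and 1.01. Brk1, the smallest subunit of the same complex, rose by 1.06 (edgeR adjusted p = 1.89e-07).

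Of 17 tested genes that flank the clusters 11 rose, 1 fell (Fchsd1, by 0.62) and 5 did not pass, beside 32.7% of all genes higher and 36.4% lower. Their median was 0.78. Sra1 rose by 1.18 on the log2 scale (edgeR adjusted p = 4.24e-07), Hars, a histidyl-tRNA synthetase, by 0.87, Rell2 by 0.84 and Wdr55 by 1.13. Taf7, a transcription factor subunit encoded between the beta and gamma clusters, had 6.10 ± 1.497 CPM in vehicle (SD, n = 5) and 8.28 ± 2.07 CPM in PM libraries (SD, n = 6; 0.44, edgeR adjusted p = 0.0635). Diaph1, beyond the gamma end, stood at 78.3 ± 6.78 and 78.9 ± 7.61 CPM (0.02, edgeR adjusted p = 0.890).

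The markers of hippocampal neurons were present. Slc17a7, the glutamate transporter of excitatory neurons, was 886.1 to 1105 CPM in vehicle and 1104 to 2004 CPM in PM libraries. Of 6 excitatory neuron markers 3 fell, 2 rose and 1 did not pass, near the 36.4% and 32.7% of all genes, and their summed level was 5761 to 6739 CPM in vehicle and 5391 to 6670 in PM libraries. Prox1, a marker of granule cells, fell by 1.97 (edgeR adjusted p = 1.60e-08), while Bok rose by 2.55 (edgeR adjusted p = 5.18e-08).

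Markers of other cells moved with PM beside the falls, read against 32.7% of all genes higher and 36.4% lower. Oligodendrocyte markers summed to 3599 to 4573 CPM in vehicle and 3816 to 8650 CPM in PM libraries, with 4 of 5 higher. Microglia markers (4 of 6 higher) summed to 163.1 to 185.5 and 199.2 to 280.7 CPM, and astrocyte markers (3 of 6 higher, 1 lower) to 1547 to 1625 and 1695 to 2909 CPM. Endothelium markers (3 of 4 higher) summed to 107.8 to 120.4 and 124.7 to 238.0 CPM, and pericyte and smooth muscle markers (2 of 4 higher, 1 lower) to 72.8 to 90.9 and 71.9 to 127.9 CPM. Oligodendrocyte precursor markers (1 of 3 lower) summed to 115.9 to 123.6 and 90.5 to 104.7 CPM, and choroid plexus markers (1 of 4 tested lower) varied widely, from 70.4 to 1245 and 32.5 to 2487 CPM. The part of these markers in the falls was not tested.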

How the data were processed

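The authors deposited raw whole-number counts, with 1 table of gene symbols for each library. The submitters' processing notes name FastQC 0.11.9, Trimmomatic 0.36, STAR, HTSeq 0.9.1, SAMtools 1.9 and Picard 2.9.2, and list mm10 and hg19 as builds; the strand setting and annotation are not given in the sources used here. The labels name both polyA RNA and ribosomal RNA removal. Summary rows were left out of library sizes.

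Counts were tested with edgeR 4.0.16 (R 4.3.3): filterByExpr with a minimum count of 10, TMM scaling, robust quasi-likelihood test, set as covariate, two-sided, Benjamini-Hochberg adjustment over 14982 genes, threshold 0.05. Effects by set came from 1 joint fit of 4 combinations. Each SE was derived as the size of the log2 fold change over the root of its F statistic. The main alternatives were DESeq2 1.42.0, other filters, and leaving out libraries. Steps were tested on simulated data with as many rises as falls. Those data held no difference between sets and no length or GC trend, so they say nothing about these in the real counts. Gene models were GENCODE M21 (98.5% of 24421 rows matched) and RefSeq GRCm38.p6.

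Named were all C-type members, the 4 of smallest p in each direction and the 2 most abundant per cluster, up to 6 members differing between sets, and up to 4 genes per list. Members and lists were chosen with earlier results of these data known. Vehicle replicates 1 and 3 were the pair of nearest counts (chi-square over its degrees of freedom 2.01, against 12.6 and 12.9 for their pairs with vehicle replicate 2) and were kept apart. Vehicle replicate 2 of the first set was nearer to replicates 4 and 5 of the second set (5.43 and 5.19), a pair with a value of 3.24.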

Additional observations from a re-analysis of the deposited data

Results flagged for a closer look

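In 114 groups of libraries examined, 10 held a library whose gap to its nearest neighbour was large against the range of its group (Dixon's 95% critical value); chance flags about 1 in 20 groups. In PM replicate 1 these were Pcdha1 (0.851 CPM), Pcdha2 (1.82 CPM), Pcdha9 (2.55 CPM) and the alpha sum (37.0 CPM), all high. In vehicle replicate 4, Pcdha12 (14.1 CPM) and the alpha sum (121.3 CPM) were high and Pcdhb22 (6.05 CPM) was low. Pcdhb18 was high in vehicle replicate 2 (30.1 CPM), Pcdhb9 low in PM replicate 4 (8.46 CPM) and Pcdhgc4 low in PM replicate 3 (1.65 CPM).

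The change with PM differed between the sets for 6 members by edgeR's contrast of the joint fit. On the log2 scale, second minus first set, the difference was -0.74 for Pcdhb11 (edgeR adjusted p = 0.0397), -0.68 for Pcdhb16 (0.0261), -0.86 for Pcdhb19 (0.0114), -0.63 for Pcdhga8 (0.0489), -0.78 for Pcdhgc3 (0.00819) and 0.94 for Pcdhgb8 (0.0443).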

How the results depend on the processing

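All 22 gamma members were lower under every alternative that could be run for them. The alpha count was 11 except for 12 with no filter and 9 with a minimum count of 30, which change how many members are tested, and the beta count lay between 13 and 18. Leaving out rows with shared exons leaves no alpha or gamma member. With the length and GC trend removed, 3393 genes were lower, the alpha median was -1.66, the beta median -0.87, and 2 beta members were higher. Pcdhb14 (0.29), Pcdhb17 (0.047) and Pcdhb22 (0.37) changed sign from falls that had passed the test. Pcdhb3 (0.28) and Pcdhb7 (0.22) also changed sign, without passing in either fit. With the trend taken at unshared exon bases, chosen after seeing the data, 3393 genes were lower, the beta median was -0.87 and 2 beta members were higher. The values of Pcdhb14, Pcdhb17 and Pcdhb22 were then 0.29, 0.047 and 0.25, and those of Pcdhb3 and Pcdhb7 again 0.28 and 0.22. The beta median was -0.93 in the first set alone and -1.37 in the second alone. Pcdhb9 was higher with DESeq2 size factors, DESeq2's Wald test, no filter and the first set alone (1 member in each). Over the whole longest transcript the median vehicle levels were 1.09 CPM per kb for alpha and 4.54 for gamma. With either trend removed, Pcdhb8 and Pcdhb20 kept their sign but lost their calls. The cause of these changes was not tested.

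Leaving out each library in turn gave 17 to 18 lower and 0 to 1 higher beta members, and 1 to 10 members and 2400 to 5612 genes whose effect differed between sets. Pcdhb8 lost its call without vehicle replicate 1, 4 or 5 or PM replicate 2, 3 or 5 (edgeR adjusted p 0.0523 to 0.0891), and Pcdhb8, Pcdhb20 and Pcdhb22 lost theirs in the first set alone.

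Libraries with the same replicate number did not deviate together (correlations -0.01, -0.03, -0.11, -0.17 and -0.12 over genes). The deviations were taken from means of very few libraries, so these values cannot settle whether the numbers pair libraries. With a replicate block 4890 genes were lower and 4318 higher, and all 54 members kept their side of the threshold. Depth limits the alpha members most, with 34 to 834 counts per tested member over the PM libraries.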
